A study of Mus musculus with 9 samples.

Results

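Oxidative phosphorylation is carried out by 5 protein complexes in the inner mitochondrial membrane, and nearly all of their subunits are encoded by nuclear genes. The genes described here are the 79 whose symbols name them as such subunits (Nduf with a, b, c, s or v, Uqcr, Cox4 to Cox8, Atp5, and Sdha, Sdhb, Sdhc and Sdhd) and whose mean was at least 10 normalized reads in both an epidermal and a regulatory T cell (Treg) expression table. They stand among 14461 genes of the epidermal table and 12206 of the Treg table with such a mean. By complex they were 40 genes of complex I, 4 of complex II, 8 of complex III, 12 of complex IV and 15 of complex V. The symbols also take in genes that encode no subunit: 4 Ndufaf assembly factors of complex I, Cox7a2l, Atp5s and Atp5sl. Cox7a2l joins complexes III and IV into supercomplexes. Atp5s and Atp5sl, now named Dmac2l and Dmac2, were counted in complex V by symbol alone. Ndufa4 bears a complex I name but encodes a complex IV subunit and was counted there.

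In all, 95 symbols matched in either table and 89 in both. Cox4i2, Cox6a2, Cox7a1, Cox7b2, Cox8b and Cox8c, mostly isoforms of muscle, lung, brain or testis, were below a mean of 10 in both tables. Ndufa4l2, Atp5g2, Atp5l and Cox7c were below it in Tregs alone. Other genes also hold 27.9% of the 50-base windows of Cox7c, 14.8% of those of Atp5g2 and 7.5% of those of Atp5l. Ndufa4l2 shares none. The counting of reads in such windows is not stated, so the low Treg values of Cox7c, Atp5g2 and Atp5l are uncertain. Of the symbols in 1 table, Atp5l-ps1, Atp5l2 and Cox4nb, which belongs to a membrane insertion complex, were in the epidermal table, and Ndufaf5, Ndufaf6 and Ndufaf7 in the Treg table. Just inside the limit in Tregs lay Cox6b2 with a mean of 18.3, and just outside lay Cox7c with 8.39 and Cox7a1 with 7.69.

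Complex I takes electrons from NADH and complex II takes them from succinate, as a step of the tricarboxylic acid cycle. Ubiquinone carries them to complex III and cytochrome c carries them on to complex IV, which reduces oxygen, while complexes I, III and IV pump protons that drive ATP synthesis by complex V. Complexes I, III, IV and V each contain subunits made from mitochondrial DNA, so they need products of both genomes. Complex II is wholly nuclear. Resting lymphocytes rely on this pathway, Tregs are known to depend on it, and keratinocytes draw on it beside a high rate of glycolysis.

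The study sorted keratinocytes from adult mouse skin epidermis of a WT and a Mi2 group (2 libraries each) and Tregs from skin-draining lymph nodes. Tregs formed a Ctl group (2 libraries), a group from Mi2 mice with the receptor for the cytokine TSLP, called TSLPR WT (2 libraries), and a group from Mi2 mice without it, called TSLPR- (1 library). Mi2 refers to Mi-2β, the chromatin remodelling ATPase encoded by Chd4, and the column names of the tables mark the Mi2 libraries as knock-outs. The TSLPR- library has the column name TMDKO, read here as a double knock-out, and was matched to its title by inference. The promoter or Cre line behind the knock-out, the strain, the age of the Treg donors and the way TSLPR- cells were obtained are not stated in the labels or the tables. Nothing in the labels says whether the libraries of a group came from separate mice, so p-values measure the spread between these libraries, which may be technical.

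Total reads recovered over genes were between 5682391 and 8913804 in epidermis, and over all transcripts between 21849381 and 32238992 in Tregs. Over 1 transcript per gene the Treg totals were between 13576847 and 19993483. Chd4 measured 1606.7 and 1941.9 normalized reads in the WT libraries and 733.7 and 1207.0 in the Mi2 epidermal ones. Crlf2, which encodes TSLPR, was at 51.5 in the TSLPR- library and between 395.2 and 815.9 in the other 4 Treg libraries. All 11 keratinocyte markers had a mean of at least 10 in epidermis and all 8 Treg markers did in Tregs, where Krt5, Krt14, Trp63 and Dsg3 were at 0. Epidermal Mi2 library 1 stood apart in its share of reads from mitochondrially encoded genes, 29.7% against 12.9% to 15.5% in the other 3, and Treg Ctl library 1 in the sum of 8 B and plasma cell markers, 5079 against 833 to 2279 normalized reads in the other 4.

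In Mi2 against WT epidermis the nuclear genes did not move as a block. The test was limma on log2(normalized reads + 1), with p-values adjusted by Benjamini-Hochberg over all genes tested and called under 0.05. By it 8 of the 79 genes rose, 5 fell and 66 were not called, where 28.2% of all genes tested were called (15.1% higher and 13.1% lower). The median log2 change of the 79 was 0.13, beside -0.03 over all genes tested, and 46 of the 79 were above 0, as were 48.7% of all genes tested. An unadjusted p under 0.05 was found for 24 of the 79 and for 42.5% of all genes tested. The Mi2 libraries were both above both WT libraries for 29 genes, where 34.9% of all genes tested were, and both below for 14, where 35.8% were. As a share of all recovered reads, the 79 genes made up 0.396% and 0.357% in WT against 0.339% and 0.384% in Mi2 epidermis, so the groups overlapped. On the normalized scale of the test their sums were 27524.5 and 23074.9 in WT against 34466.3 and 29736.8 in Mi2, with both Mi2 libraries above both WT libraries.

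**Figure D1:**
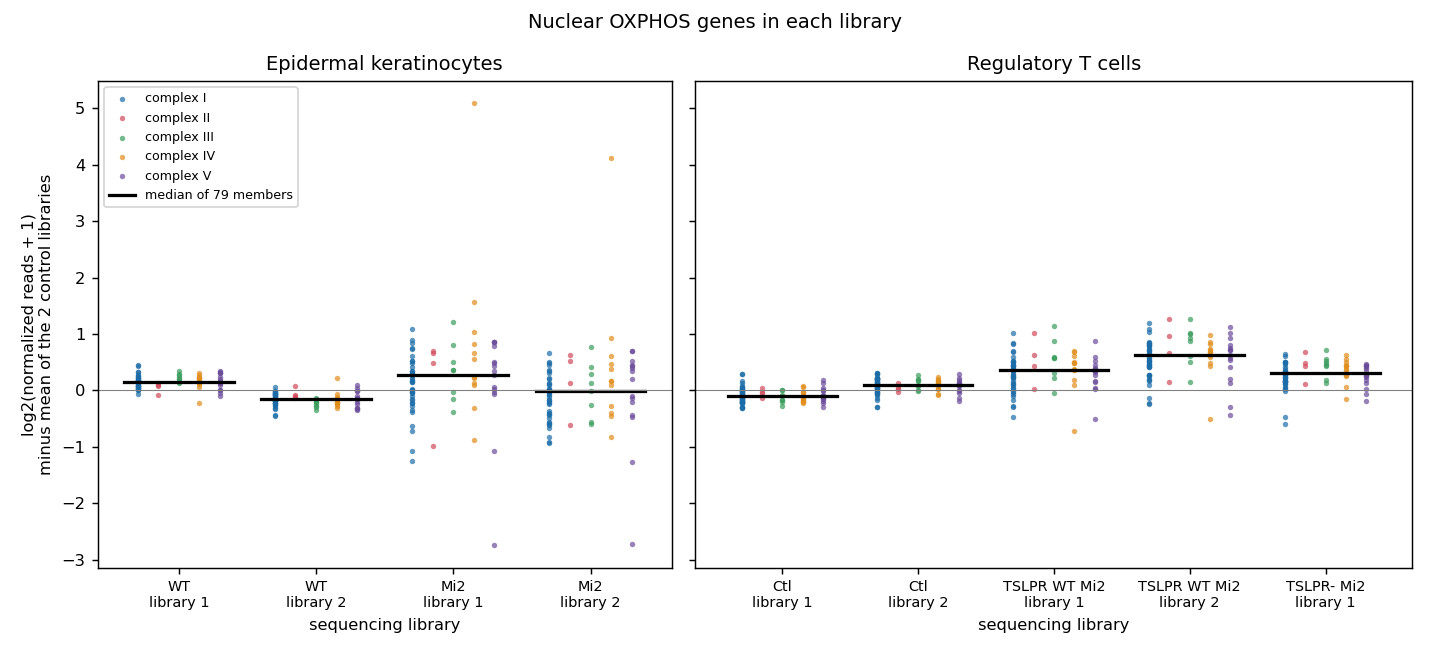
Each point is 1 of the 79 genes in 1 library, as log2(normalized reads + 1) minus the mean of the 2 control libraries of that cell type (WT or Ctl), coloured by complex, and black lines are medians over the genes. The points of Mi2 epidermis spread to both sides of 0, with Cox6b2 far above and Atp5s far below, while in the 3 Treg libraries of Mi2 mice the medians lie above both Ctl medians.

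The catalytic head of ATP synthase held 3 of the 8 genes that rose, 60% of its 5 genes beside 15.1% of all genes tested. Atp5a1, which encodes its alpha subunit, stood at 2659.6 and 2602.5 normalized reads in WT against 4566.8 and 4259.8 in Mi2 epidermis (log2 change of 0.75 with an SE of 0.20 and an adjusted p = 0.0329). For Atp5b, the catalytic beta subunit, the values were 3398.9 and 3371.3 in WT against 6157.7 and 5470.8 in Mi2 (log2 change of 0.78 with an SE of 0.21 and an adjusted p = 0.0342). Atp5d, the delta subunit of the central stalk, rose by 0.69 on the log2 scale (adjusted p = 0.0466). The Mi2 libraries were above both WT libraries for each of these 3 genes. The other 2 genes of the head were not called, with log2 changes of -0.14 for Atp5c1, the gamma subunit, and -0.23 for Atp5e, the epsilon subunit.

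Outside the head of complex V the picture differed by gene, and the 2 falls were those of Atp5s and Atp5sl, which encode no subunit. None of the 4 peripheral stalk genes, of the 2 c-ring genes or of the 2 genes of the membrane part among the 79 was called, with log2 changes between -0.23 for Atp5j2 and 0.66 for Atp5g3. Atp5s fell from 38.7 and 44.3 to 5.3 and 5.4 normalized reads, which are 39 and 61 reads in WT and 4 in each Mi2 library (log2 change of -2.73 with an SE of 0.46 and an adjusted p = 0.00744). Atp5sl, its relative, fell from 207.4 and 132.1 to 78.3 and 68.1 (log2 change of -1.17 with an SE of 0.30 and an adjusted p = 0.0279). The Mi2 libraries lay below both WT libraries for both genes. Atp5s passed the limit on low values only through its WT libraries and Cox6b2, described next, only through its Mi2 libraries, so both had to differ to be counted.

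Complex IV held the largest rise, that of 1 of a pair of paralogs. Cox6b2, known as the testis isoform of subunit 6B, stood at 4.0 and 5.8 normalized reads in WT (4 and 8 reads) against 197.7 and 100.8 in Mi2 epidermis (149 and 74 reads), a log2 change of 4.61 with an SE of 0.47 and an adjusted p = 0.00145. Cox6b1, the ubiquitous isoform, stood at 334.4 and 304.2 in WT against 469.7 and 359.6 in Mi2 and was not called (log2 change of 0.36, adjusted p = 0.239). Cox6b2 thus gave 1.19 and 1.91 reads for every 100 of Cox6b1 in WT against 42.1 and 28.0 in Mi2 epidermis, a ratio of reads not corrected for length. Both Mi2 libraries were far above both WT libraries, and Mi2 library 1 was the higher. In the table of the Tregs Cox6b2 lies on the minus strand at mm9 chr7:4703394-4704696.

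Ndufa4 and Ndufa4l2 moved in opposite directions in epidermis. Ndufa4, the complex IV subunit at mm9 chr6:11850373-11857446, started from 154.8 and 113.2 normalized reads in WT and rose to 396.7 and 253.4 in Mi2 (log2 change of 1.25 with an SE of 0.29 and an adjusted p = 0.0209). Ndufa4l2, its paralog known as a target of the hypoxia pathway, which is too low in Tregs to be counted among the 79, fell from 1219.6 and 1078.8 to 589.1 and 750.6 (log2 change of -0.79 with an SE of 0.21 and an adjusted p = 0.0306). No Mi2 library overlapped the WT range for either gene. Reads of Ndufa4l2 per 100 of Ndufa4 were 788 and 953 in WT against 148 and 296 in Mi2 epidermis. In Tregs that ratio was at most 0.0830, with no more than 1.2 normalized reads of Ndufa4l2 in any library.

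Cox7a2l fell from 756.2 and 568.4 in WT to 358.2 and 367.8 normalized reads in Mi2 epidermis (log2 change of -0.85 with an SE of 0.21 and an adjusted p = 0.0263). Cox7a2, the subunit whose place Cox7a2l takes in supercomplexes, stood at 198.5 and 127.8 in WT against 187.1 and 130.8 in Mi2 (log2 change of -0.03, adjusted p = 0.956). The groups were apart for Cox7a2l and overlapped for Cox7a2. Of the 50-base windows of the Cox7a2l transcript, 17.7% also occur in the gene Gm6969, so its reads could have been split or shared. Cox8a, a small ubiquitous subunit, rose from 533.9 and 445.0 to 866.4 and 742.4 (log2 change of 0.72, adjusted p = 0.0375). Cox4i1 and Cox5b, further ubiquitous subunits, were not called, with log2 changes of -0.38 and -0.13.

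**Figure D2:**
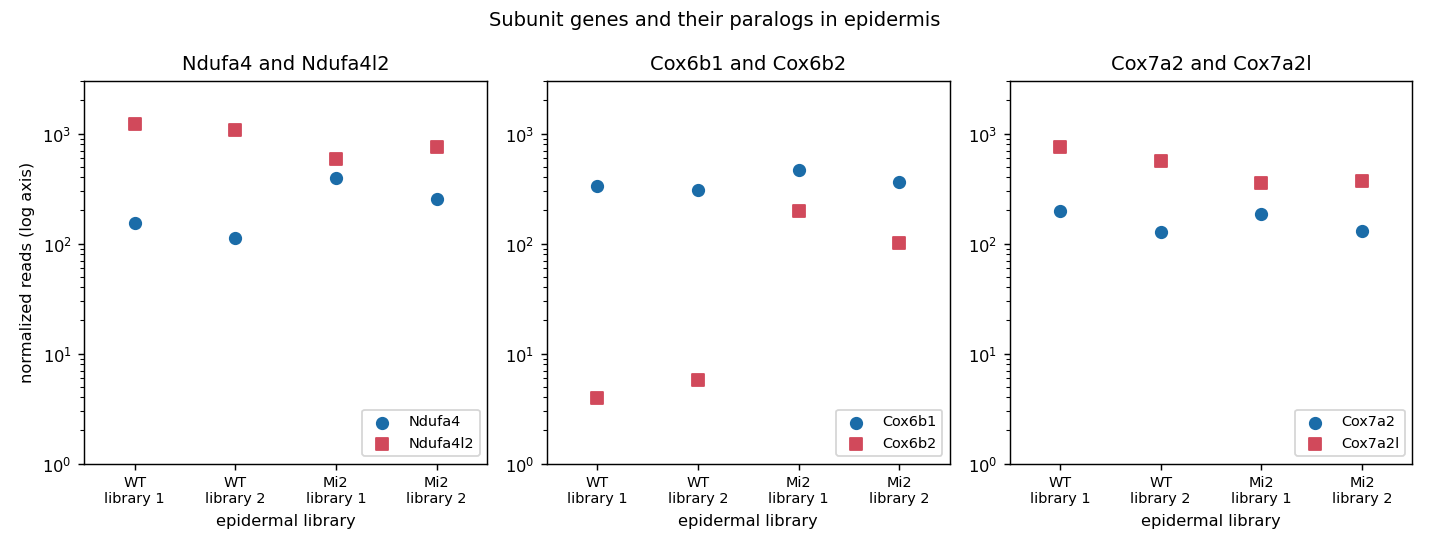
Normalized reads on a log axis are shown for 3 pairs of related genes in the 4 epidermal libraries, each point being 1 library. Cox6b2 stands under 10 in WT and above 100 in Mi2 epidermis, Ndufa4 and Ndufa4l2 approach each other in Mi2, and Cox7a2l falls while Cox7a2 stays in the same range.

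Complex II divided within its 4 subunits. Sdha, the flavoprotein that oxidizes succinate, was at 427.7 and 474.8 in WT and rose to 713.8 and 701.6 normalized reads in Mi2 epidermis (log2 change of 0.65 with an SE of 0.19 and an adjusted p = 0.0391). Sdhc, a membrane anchor, fell from 442.6 and 371.0 to 203.0 and 264.3 (log2 change of -0.80 with an SE of 0.23 and an adjusted p = 0.0379). For both genes the groups were apart. Sdhd, the other anchor, and Sdhb, the iron-sulfur subunit, were not called, with log2 changes of 0.61 (adjusted p = 0.0618) and 0.30 (adjusted p = 0.366).

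Of complex III, Uqcrq, a small accessory subunit, was the 1 gene of 8 called (12.5%, beside 28.2% of all genes tested). Its normalized reads rose from 242.1 and 161.9 to 460.4 and 340.6 (log2 change of 0.996 with an SE of 0.27 and an adjusted p = 0.0347). Uqcrfs1, the Rieske iron-sulfur protein, and Uqcrc1, a core protein, had log2 changes of 0.61 (adjusted p = 0.0861) and 0.25 (adjusted p = 0.395). Complex I had the fewest calls for its size, 1 of 40 (2.5%, beside the same 28.2%). That gene was Ndufa6, an accessory subunit, which fell from 246.1 and 220.7 to 142.0 and 124.0 (log2 change of -0.81 with an SE of 0.22 and an adjusted p = 0.0352). The 7 core genes of complex I, which carry its redox centres and quinone site, had log2 changes from -0.02 for Ndufs8 to 0.59 for Ndufs1 (adjusted p = 0.0776 for Ndufs1), and none was called.

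**Figure D3:**
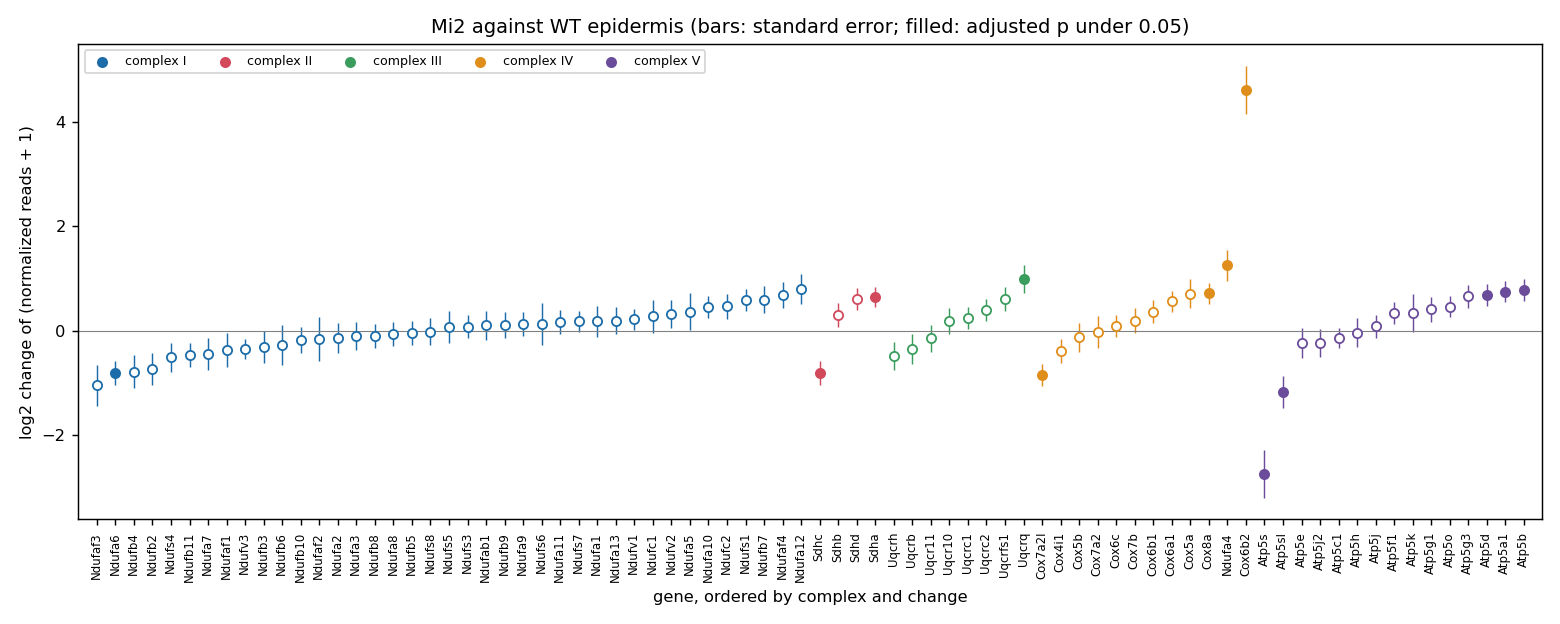
Log2 change of 78 of the 79 genes in Mi2 against WT epidermis with its standard error, ordered within each complex, with filled points for an adjusted p under 0.05. Complex I has 1 filled point among 39 genes, while filled points above and below 0 stand side by side in complexes II, IV and V. Those below 0 in complexes IV and V are Cox7a2l, Atp5s and Atp5sl.

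These epidermal calls rest on few libraries and on the scaling. With 1 library left out, 16 rose and 6 fell without Mi2 library 2, and 2 rose and 3 fell without Mi2 library 1. Without WT library 1 or 2, 1 rose and none fell. Cox6b2 alone was called each time, a gene that had to differ to be counted. Counts over all genes tested with a library left out are not given beside these, so the shifts may not be particular to the 79. Scaled to total reads with mitochondrially encoded genes left out, 2 of the 79 rose (Cox6b2 and Ndufa4) and 7 fell, and the median over all genes tested moved from -0.03 to -0.27, with that of the 79 genes at -0.10. The 6 other rises were no longer called under that scaling, with log2 changes between 0.42 and 0.76 and adjusted p between 0.0598 and 0.153. The 5 falls were called. That scaling also put total reads in place of the deposited normalization. Totals with those genes kept were not tried, so the part of each step in the lost calls was not tested.

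The 13 subunits encoded by mitochondrial DNA made up 9.35% and 9.12% of reads in WT against 19.2% and 8.87% in Mi2 epidermis. As a share of reads Mi2 library 1 was high and Mi2 library 2 lay below both WT libraries, whereas on the normalized scale all 13 log2 changes were above 0, from 0.42 to 1.47. None of the 13 was called (smallest adjusted p = 0.170, none at an unadjusted p under 0.05, median log2 change 0.70), and the Treg table holds no mitochondrially encoded row. For each read of the 79 nuclear genes there were 23.6 and 25.6 reads of the 13 mitochondrial ones in WT against 56.6 and 23.1 in Mi2 epidermis.

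Of the other mitochondrial lists in epidermis, that of the tricarboxylic acid cycle had a larger share of calls than the 28.2% of all genes tested. Of its 18 genes 9 rose and none fell (50%, median log2 change 0.58), among them Mdh2, malate dehydrogenase, by 1.18 and Pdhb, a subunit of pyruvate dehydrogenase, by 0.88 on the log2 scale. Of 26 protein import genes 6 rose and 1 fell (26.9%, near the share of all genes, median 0.56), and Tomm40, the outer membrane channel, went from 222.3 and 220.7 to 957.9 and 648.4 normalized reads. The ADP/ATP carrier Slc25a5 and the phosphate carrier Slc25a3, which supply ATP synthase, rose by 1.26 and 0.70 and were the 2 called of 12 genes in their list (16.7%). Cyc1, the cytochrome c1 of complex III, rose by 0.91, while 2 genes of ubiquinone synthesis or handling, Adck3 and Coq10a, fell by 2.73 and 1.14 on the log2 scale, and these 3 were the calls of a list of 15 (20%).

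The lists of assembly factors held few calls. Of 32 assembly factors of complexes II to V 4 fell (12.5%, near the 13.1% of all genes tested called lower) and none rose (median -0.24), and of 9 complex I factors outside the Ndufaf genes Tmem126b fell by 1.29 on the log2 scale. None of the 4 Ndufaf genes among the 79 was called. Mitochondrial ribosomal proteins gave 1 rise and 3 falls of 80 genes (median 0.13), and cytosolic ribosomal proteins gave no call of 77, with 15 at an unadjusted p under 0.05 (median -0.33). Among regulators of mitochondrial gene expression Myc and Ppargc1b rose by 1.31 and 0.90 and Tfb1m fell by 1.37 on the log2 scale, of 19 tested.

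Markers of other cells also differed between the epidermal groups. The sum of 8 fibroblast and dermis markers was 1038 and 587 normalized reads in WT against 4653 and 2531 in Mi2, and Sparc and Thy1 carried it, being the 2 of 5 tested that rose. The collagens Col1a1, Col1a2 and Col3a1 were not called, with log2 changes of -1.65, -1.62 and -2.39, and the median of the 5 was -1.62. Langerhans and dendritic cell markers, 8 in all, summed to 348 and 329 against 1258 and 1466, with Mfge8 and Cd74 the 2 of 4 tested that rose. Erythroid markers, 7 of 7 found and 6 of them called lower, summed to 1236 and 3851 in WT and to 299 and 523 in Mi2. Muscle markers summed to 44.7 and 41.4 against 95.5 and 104.9, with Myh4, Pvalb and Des at 0, and 6 of 8 adipocyte markers were at 0. The part of these cells in the changes of the 79 genes was not tested, and in sorted bulk samples a different share of cells and a different amount of RNA per cell cannot be told apart.

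In Tregs many of the same genes lay higher in cells of Mi2 mice. TSLPR WT Mi2 against Ctl Tregs gave 22 genes that rose, 1 that fell and 56 not called of the 79, where 27.7% of all genes tested were called (14.7% higher and 13.0% lower). The share of the 79 called higher was 27.8% and the share called lower 1.27%. The median log2 change was 0.50, beside -0.01 over all genes tested, and 71 of the 79 were above 0, as were 49.5% of all genes tested. An unadjusted p under 0.05 was found for 37 of the 79 and for 38.9% of all genes tested. Both TSLPR WT Mi2 libraries were above both Ctl libraries for 56 genes, where 32.9% of all genes tested were, and below both for 2, where 32.7% were.

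The sum over the 79 genes moved with these counts. Among reads over 1 transcript per gene, they made up 0.623% and 0.710% in Ctl against 0.876% and 1.07% in TSLPR WT Mi2, with 0.832% in the TSLPR- library. The 3 libraries from Mi2 mice were above both Ctl libraries, and TSLPR WT Mi2 library 2 was the highest. Per complex, the share of complex V rose most in reads, from 0.246% and 0.280% in Ctl to 0.366% and 0.471% in TSLPR WT Mi2, and that of complex I went from 0.164% and 0.190% to 0.219% and 0.254%.

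Levels between genes can be compared in Tregs, where the table gives transcript lengths. In Ctl Tregs the 79 genes lay between 24.1 and 7126 normalized reads per kb, with a median of 1084. Atp5b, Cox4i1 and Atp5a1 were the highest, at 7126, 5219 and 5147 per kb, and Cox6b2, Atp5g1 and Ndufab1 the lowest, at 24.1, 36.9 and 38.3. Median levels per kb were 776 for complex I, 1340 for complex II, 1497 for complex III, 1829 for complex IV and 1618 for complex V. Of the c-ring genes, which encode the same mature protein, Atp5g3 was at 3998 per kb and Atp5g1 at 36.9, while Atp5g2 was below the limit. Of the 50-base windows of Atp5g1, Atp5g2 and Ndufab1, 11.6%, 14.8% and 12.3% also occur in other genes, against none of Atp5g3. The transcript of Atp5g1 scanned for windows has 4715 bases and the one counted 791, so the share within the counted one can differ. How reads in such windows were counted is not stated, so these low values are uncertain.

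Complex II and complex III held the genes with the smallest p-values. Sdhd, a membrane anchor of complex II at mm9 chr9:50404445-50411954, stood at 1545.5 and 1470.1 normalized reads in Ctl against 3062.3 and 3617.4 in TSLPR WT Mi2 Tregs (log2 change of 1.14 with an SE of 0.20 and an adjusted p = 8.04e-04). Sdhb, its iron-sulfur subunit, went from 1457.9 and 1734.7 to 2474.0 and 3089.9 (log2 change of 0.80 with an SE of 0.21 and an adjusted p = 0.0117). The groups were apart for both genes. Sdha, the catalytic flavoprotein, stood at 4710.9 and 4980.4 in Ctl against 4908.4 and 5343.5 in TSLPR WT Mi2 and was not called (log2 change of 0.08 with an SE of 0.20 and an adjusted p = 0.801). Reads of Sdha per 100 of Sdhb were 323 and 287 in Ctl against 198 and 173 in TSLPR WT Mi2 Tregs, with no overlap.

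In complex III 5 of 8 genes rose (62.5%, beside 14.7% of all genes tested). Uqcr10, a small subunit at mm9 chr11:4601971-4604347, showed the largest change of the 79, its normalized reads going from 592.9 and 877.4 to 1592.9 and 1731.1 (log2 change of 1.20 with an SE of 0.23 and an adjusted p = 0.00161). Uqcrfs1, the Rieske protein, went from 1359.7 and 1360.2 to 2486.4 and 2723.5 (log2 change of 0.94 with an SE of 0.20 and an adjusted p = 0.00312). Both groups were apart for each of them. Uqcr11, Uqcrq and Uqcrc1 rose by 0.81, 0.75 and 0.73 on the log2 scale (adjusted p = 0.0342, 0.0271 and 0.0201), and Uqcrh, the hinge protein, was at 0.05 (adjusted p = 0.872).

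Complex I had 6 rises among 40 genes, a share of 15% beside 14.7% of all genes tested. The normalized reads of its accessory subunits Ndufc2 and Ndufb8 went from 549.1 and 528.5 to 1089.3 and 1143.8 and from 678.1 and 911.9 to 1411.2 and 1807.7 (log2 changes 1.05 and 1.02, adjusted p = 0.00262 and 0.00461). Ndufv1, which binds NADH and the flavin, went from 1072.1 and 1334.5 to 1913.1 and 2152.2 (log2 change of 0.76 with an SE of 0.21 and an adjusted p = 0.0150). Ctl and TSLPR WT Mi2 libraries did not overlap for these 3 genes. Ndufb7, Ndufs8 and Ndufb9 were the other 3 that rose, by 0.93, 0.66 and 0.62 on the log2 scale. Ndufs1, the largest subunit of the peripheral arm, was not called, with 1804.6 and 1508.6 in Ctl against 1784.3 and 2207.9 in TSLPR WT Mi2, where the groups overlapped, and neither was any of the 4 Ndufaf assembly factors (log2 changes from -0.26 to 0.52).

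In complex IV 5 genes rose and 1 fell of 12 (41.7% and 8.33%, beside 14.7% and 13.0% of all genes tested). Cox5a, which binds a thyroid hormone metabolite and sits at the matrix face, went in normalized reads from 1094.6 and 990.5 to 1664.3 and 2051.6 (log2 change of 0.83 with an SE of 0.21 and an adjusted p = 0.00971), and 10.5% of its 50-base windows also occur in other genes. Cox8a, Cox6a1, Ndufa4 and Cox6b1 rose by 0.72, 0.68, 0.61 and 0.60 on the log2 scale (adjusted p = 0.0292, 0.0297, 0.0388 and 0.0499), the last at the edge of the threshold. Cox4i1 and Cox5b were not called, with log2 changes of 0.50 (adjusted p = 0.0952) and 0.52 (adjusted p = 0.187). Cox6b2 stayed between 11.8 and 22.9 normalized reads in the 5 Treg libraries and gave at most 0.983 reads per 100 of Cox6b1.

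Cox7a2l was the 1 gene that fell. It stood at 2113.5 and 2546.3 normalized reads in Ctl against 1415.6 and 1632.5 in TSLPR WT Mi2, and the TSLPR- library at 2097.7 (log2 change of -0.61 with an SE of 0.21 and an adjusted p = 0.0416 for TSLPR WT Mi2 against Ctl). The TSLPR WT Mi2 libraries were below the other 3. Cox7a2 was at 876.9 and 973.6, at 994.0 and 1475.2 and at 968.2 in the same order (log2 change of 0.39, adjusted p = 0.240), and reads of Cox7a2l per 100 of Cox7a2 were 241 and 262 in Ctl, then 142 and 111 with TSLPR WT, and 217 without TSLPR.

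In complex V 4 of 15 genes rose (26.7%, beside 14.7% of all genes tested). Atp5g3, the c-ring gene with the most reads in these cells, at mm9 chr2:73746507-73749351, went in normalized reads from 2685.0 and 2688.3 to 4916.3 and 5853.2 (log2 change of 0.997 with an SE of 0.20 and an adjusted p = 0.00205). Atp5a1 went from 11710.5 and 13171.2 to 18787.7 and 23755.3 (log2 change of 0.77, adjusted p = 0.0188) and Atp5b from 12422.9 and 14185.0 to 19025.8 and 26817.2 (log2 change of 0.77, adjusted p = 0.0247). No TSLPR WT Mi2 library reached down to the Ctl range for these 3 genes. Atp5o, a stalk subunit, rose by 0.60 (adjusted p = 0.0486), but 50.3% of its 50-base windows also occur in other annotated entries. These include a second entry named Atp5o at the same place, so the share is not one of copies elsewhere alone. Atp5s and Atp5sl had log2 changes of -0.14 and -0.40 (adjusted p = 0.824 and 0.237).

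**Figure D4:**
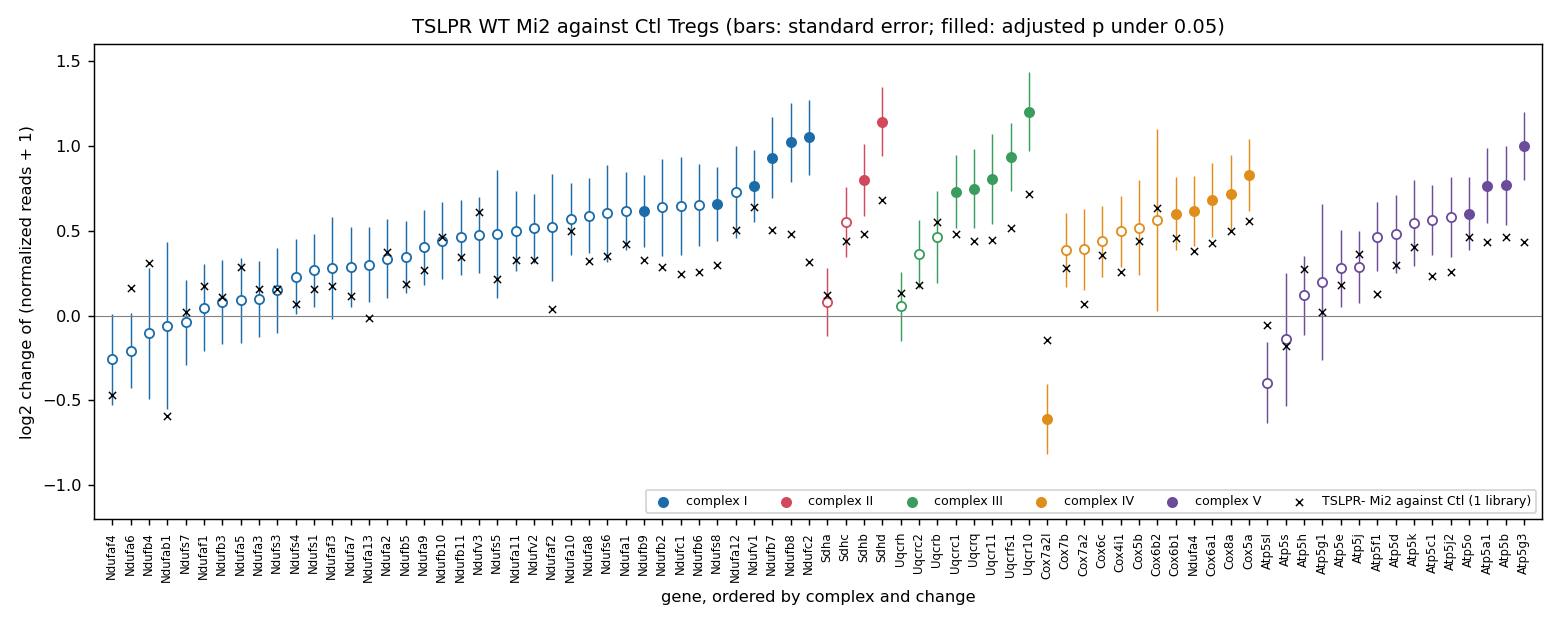
Log2 change of 78 of the 79 genes in TSLPR WT Mi2 against Ctl Tregs with its standard error, filled for an adjusted p under 0.05, and crosses for the change of the single TSLPR- library against the same Ctl libraries. Most points and crosses lie above 0, crosses are mostly below the points of the same gene, and Cox7a2l is the 1 filled point below 0.

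The Treg count depends on 2 libraries, though counts over all genes tested with a library left out are not given beside it. It was 7 rises and 1 fall without Ctl library 1, which also had the lowest share of reads for the 79 genes and the highest B and plasma cell marker sum, and 7 and 0 without TSLPR WT Mi2 library 2. The median log2 change was then 0.37 and 0.36, and Atp5g3, Ndufb8, Ndufc2, Sdhd, Uqcr10 and Uqcrfs1 were called with any 1 of the 5 libraries left out. The call of Cox7a2l was lost without Ctl library 2 and without either TSLPR WT Mi2 library. All 8 B and plasma cell markers had a mean of at least 10, and their sums were 5079 and 2279 normalized reads in Ctl against 833 and 1065 in TSLPR WT Mi2, with 961 in the TSLPR- library. All 8 were called lower. Langerhans and dendritic cell markers summed to 62349 and 48233 in Ctl against 35967 and 37563 in TSLPR WT Mi2, most of it Ptprc, which Tregs also express, and 3 of 7 tested fell (H2-Ab1, H2-Aa and Cd74) while Mfge8 rose. Of 6 CD8 T and NK cell markers tested, Cd8a, Nkg7 and Klrd1 fell and Gzmb rose, with sums of 2709 and 2502 against 3436 and 3255. The part of such cells in the changes of the 79 genes was not tested.

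Tregs without TSLPR were represented by 1 library, which the fit assumes to vary like the other groups. Against Ctl none of the 79 genes was called by limma, where 3.15% of all genes tested were (2.63% higher and 0.516% lower), and 4 had an unadjusted p under 0.05, as had 13.3% of all genes tested. edgeR on recovered reads also called none. The smallest adjusted p was 0.208, for Sdhd at 2413.4 normalized reads. The median log2 change was 0.31, beside 0.04 over all genes tested, and 73 of the 79 changes were above 0, as were 54.5% of all genes tested. The TSLPR- library was above both Ctl libraries for 64 genes, where 40.9% of all genes tested were, and below both for 3, where 31.3% were.

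Against TSLPR WT Mi2 Tregs, which tests the difference between the groups from Mi2 mice itself, none of the 79 was called by limma or by edgeR, where limma called 0.942% of all genes tested (0.737% higher and 0.205% lower). An unadjusted p under 0.05 was found for 2 of the 79 and for 11.9% of all genes tested. The median log2 change of the TSLPR- library was -0.18, beside 0.03 over all genes tested, and 19 of the 79 were above 0, as were 52.6% of all genes tested. The library was below both TSLPR WT Mi2 libraries for 48 genes, where 34.5% of all genes tested were, and above both for 8, where 38.8% were. Ndufc2 had the smallest adjusted p (0.259), at 670.3 normalized reads in the TSLPR- library beside 1089.3 and 1143.8. Without TSLPR WT Mi2 library 1 or 2 the median was -0.32 or -0.04, so its size rests on which of them it is set against. This comparison and the one before it share libraries with the first Treg comparison, so their medians are not independent.

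In TSLPR WT Mi2 against Ctl Tregs 14.7% of all genes tested were called higher and 13.0% lower, and the other mitochondrial lists are read against these shares. Of 12 genes of ATP exchange and carriers 4 rose and none fell (33.3% higher, median 0.57), led by Slc25a4, an ADP/ATP carrier, from 1483.9 and 1654.5 in Ctl to 3933.8 and 5518.7 normalized reads (log2 change of 1.57, adjusted p = 1.18e-04), and the TSLPR- library was at 2325.6. Atpif1, the inhibitor of ATP synthase, rose by 1.03 on the log2 scale. Of 18 tricarboxylic acid cycle genes 4 rose (22.2%, median 0.42), among them Idh3a and Fh1 by 1.08 and 0.90, and of 25 import genes 3 rose (12%, median 0.46). Mitochondrial ribosomal proteins gave 12 rises of 75 genes (16%, median 0.38), led by Mrpl18 and Mrpl54, both by 1.06. The shares of the import and ribosome lists were thus near that of all genes tested. No gene of these 4 lists fell.

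Assembly factors and regulators had medians nearer to that of all genes tested, -0.01, and no difference between lists was tested. Of 32 assembly factors of complexes II to V Cox18 rose by 0.74 and the others were not called (median 0.06), none of 10 complex I factors outside the Ndufaf genes was called by limma (none at an unadjusted p under 0.05, median 0.07), and of 15 genes of cytochrome c and ubiquinone Coq7 and Pdss1 rose by 1.77 and 1.01 (13.3%, median 0.03). Of 18 regulators Mterf3 and Myc fell by 0.77 and 0.63 on the log2 scale and none rose (11.1% lower, median -0.13). Cytosolic ribosomal proteins had a median of -0.16, with Rps27l the 1 called of 72. For the single TSLPR- library against Ctl, the median log2 change was 0.41 for carriers, 0.22 for the tricarboxylic acid cycle and 0.20 for import. It was 0.28 for mitochondrial ribosomal proteins, beside 0.04 over all genes tested. The medians of the other lists in that comparison lay between 0.02 for regulators and 0.22 for cytochrome c and ubiquinone.

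**Figure D5:**
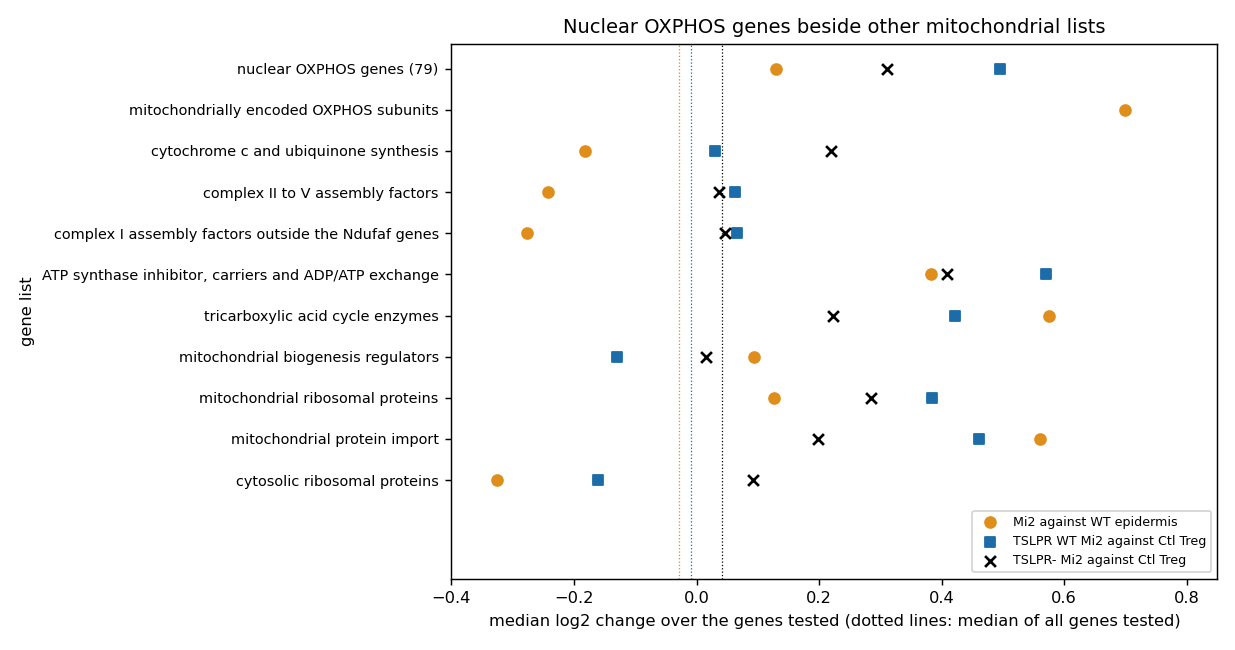
Median log2 change of the 79 genes and of 10 further lists in 3 comparisons, with dotted lines for the median of all genes tested. In Tregs the 79 genes lie with the carrier, import, tricarboxylic acid cycle and mitochondrial ribosome lists to the right, and the assembly factor lists lie near the dotted lines.

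The epidermal and Treg calls shared 6 genes, which are 6 of the 13 epidermal calls and 6 of the 23 Treg calls. Whether unrelated calls would share fewer was not tested, and the overlap over all genes tested is not given. The sharing may thus not be particular to these genes. Atp5a1, Atp5b, Cox8a, Ndufa4 and Uqcrq were called higher in both, and Cox7a2l was called lower in both. The tables were normalized separately and share no library, and no test of the difference between cell types was made. Of the 13 epidermal calls 10 had no 50-base window in another gene, as had 15 of the 23 Treg calls, and those with over 10% of such windows were Atp5o, Cox5a, Cox6a1, Cox7a2l and Ndufb9.

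Because many of these genes lay higher together in Tregs, their promoters were searched for letters bound by factors known to act on such genes. RefSeq windows from 250 bases before to 50 after the gene start (GRCm38.p6) matched 68 of the 79 genes. Atp5a1, Cox4i1, Sdhc and Uqcrq were among those not matched. The motifs, read on both strands and none of them contained in another, were fixed letters for NRF1, GABPA (CCGGAAG) and YY1, all spelled in capitals in the windows printed next. A match to NRF1 letters was in 5 of 68 windows (7.35%, beside 0.977% of 27025 promoters), one to GABPA letters in 15 (22.1%, beside 9.12%) and one to YY1 letters in 5 (7.35%, beside 0.699%). Among the 19 matched genes called higher in TSLPR WT Mi2 Tregs these counts were 2, 8 and 0, and among the other 49 they were 3, 7 and 5. The 27025 promoters also take in genes not tested here, so the higher shares may not be particular to the 79. A match is a description of letters and shows no binding.

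The windows shown are those of called genes with the smallest p-values among those whose match lies wholly before the gene start, and for YY1 that of Ndufs6, which was not called. They are printed with the motif in capitals, each sequence 5′ to 3′ on the strand of its gene. Sdhd lies at GRCm38 chr9:50603879-50603905 on the minus strand and Ndufb7 at chr8:83566728-83566754 on the plus strand. Cox6a1, on the minus strand, has 2 matches, to NRF1 letters at chr5:115349101-115349130 and to GABPA letters at chr5:115348959-115348984. Ndufs6, an accessory subunit of complex I, lies on the minus strand at chr13:73328433-73328459.
Sdhd, GABPA: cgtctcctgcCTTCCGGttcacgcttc
Ndufb7, GABPA: cctagatgacCCGGAAGacactgaagg
Cox6a1, NRF1: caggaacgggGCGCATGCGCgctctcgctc
Cox6a1, GABPA: cccatttccgCTTCCGGcgcgccggt
Ndufs6, YY1: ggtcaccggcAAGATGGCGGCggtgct
In Sdhd and in the second Cox6a1 window the GABPA letters stand on the strand opposite to the gene. The first 4 matches begin 46, 20, 162 and 16 bases before the gene start, in the order of the lines, and the YY1 letters of Ndufs6 begin 33 bases after it, inside the transcript.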

How the data were processed

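RNA sequencing covered 9 sorted mouse samples. The authors deposited signal values, normalized read counts, in 2 tables. Per the submitters' processing notes, bcl2fastq 1.8.3, STAR and DESeq2 were used and the builds mm9 and mm10 are named without a role. Per the file headers, the Treg table came from HOMER and holds exonic reads per RefSeq transcript (mm9), and its command names 7 libraries, of which the 5 in the table were used. Strand setting and library kit per sample have no source here, so reads of overlapping antisense genes cannot be told apart.

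All values were whole multiples of the value of 1 read, within 0.05 reads, so reads could be recovered. Each Treg symbol was represented by its transcript with the highest mean. Since the values are not raw counts, limma 3.58.1 (R 4.3.3) with an intensity trend was fitted to log2(value + 1) on every gene with a mean of at least 10, two-sided, with Benjamini-Hochberg adjustment over all genes tested, in 1 fit of 4 epidermal and 1 of 5 Treg libraries. Fold changes on that scale understate changes of low genes. edgeR 4.0.16 on recovered reads, DESeq2 1.42.0 size factors and the settings of the closing section were alternatives. The fits were tested on simulated data. Shared 50-base windows came from 1 GENCODE vM21 transcript per gene (GRCm38), which can be longer than the Treg transcript counted. They were matched on either strand, so overlapping antisense genes count as other genes, as does a second entry of the same name for Atp5o.

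The members and gene lists were chosen with earlier results of these data known, so no pattern of theirs is independent support. Named genes were up to 12 called genes per direction by smallest adjusted p, 10 large or catalytic subunits, the isoform sets, up to 3 genes of each list, and checks and markers. Other genes named singly, among them Uqcr11, Atp5o, Ndufb9 and Ndufs8 in Tregs, Uqcrh, Atp5c1, Atp5e and Atp5j2, were named beyond that rule after their values were seen. The values of 1 gene of the set are not reported here.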

Additional observations from a re-analysis of the deposited data

Results flagged for a closer look

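The values of Cox4i1 and Sdhc in both Mi2 libraries lay below both WT libraries in epidermis and, in both TSLPR WT Mi2 libraries, above both Ctl libraries in Tregs. Of these 4 changes only that of Sdhc in epidermis was called. Of all genes tested, 35.8% lay wholly below in epidermis and 32.9% wholly above in Tregs. The share doing both is not given, so the pattern may not be particular to these genes. Cox4i1, a ubiquitous complex IV subunit, had a log2 change of -0.38 in Mi2 against WT epidermis (adjusted p = 0.254) and of 0.50 in TSLPR WT Mi2 against Ctl Tregs (adjusted p = 0.0952), neither of them called. Sdhc, a membrane anchor of complex II, fell in epidermis by 0.80 on the log2 scale, a change of -0.80 that was called, and stood at 0.55 in Tregs (adjusted p = 0.0603). The difference between the cell types was not tested, since the tables were normalized separately. Of the 50-base windows of Cox4i1, 14.7% also occur in other genes.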

How the results depend on the processing

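The 8 rises and 5 falls in epidermis were the same genes with TMM scaling, DESeq2 size factors, edgeR and a pseudocount of 5. The counts were 1 and 2 without an intensity trend and 2 and 3 with no filter on low values. Scaled to total reads less mitochondrially encoded genes, in place of the deposited normalization, they were 2 and 7, and 30 of the 79 changes were above 0. Scaling to totals with those genes kept was not run. Leaving out 1 library gave between 1 and 16 rises and between 0 and 6 falls. In TSLPR WT Mi2 against Ctl Tregs the 22 rises and 1 fall were 20 to 22 and 1 with either scaling, edgeR, a fit of the 2 compared groups, the longest transcript and a pseudocount of 5. They were 6 and 0 without a trend and 0 and 0 with no filter. Leaving out 1 library gave between 7 and 22 rises and between 0 and 1 fall. No call was gained or lost for the TSLPR- library under any setting run. The causes were not tested, and counts over all genes tested are not given beside those of the 79 under any setting of this section. Scaling without mitochondrially encoded genes was not possible in Tregs, whose table holds none.

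With the replicate number as a block, 14 rose and 5 fell in epidermis and 34 rose and 1 fell in Tregs. The numbers were not shown to pair the samples: replicate differences correlated at 0.123 in epidermis and 0.093 in Tregs, over 2 pairs each.

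Among named genes below the threshold, signs changed as follows in log2 change. Scaled to total reads without mitochondrially encoded genes, Ndufv1 in epidermis was at -0.0125. With 1 library left out, Cox5b lay between -0.39 and 0.14 and Cox7a2 between -0.34 and 0.29 in epidermis, and Foxp3 between -0.12 and 0.34 in TSLPR WT Mi2 Tregs. For the TSLPR- library against Ctl, Atp5g1 was at -0.0344 with DESeq2 size factors, -0.0024 with edgeR, -0.0716 with the longest transcript and between -0.11 and 0.15 with 1 library left out. There Foxp3 was at -0.0188 with DESeq2 size factors, -0.0038 with edgeR and between -0.19 and 0.27 with 1 library left out, where Cox7a2 lay between -0.00800 and 0.14 and Gabpa between -0.42 and 0.12. Against TSLPR WT Mi2, Sdha was at -0.0114 with DESeq2 size factors, and with 1 library left out the ranges were -0.26 to 0.045 for Ndufs1, -0.020 to 0.10 for Sdha, -0.24 to 0.079 for Cox5b and -0.060 to 0.21 for Cox6b2.

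Depth limits genes of few reads: Atp5s had 4 reads in each Mi2 epidermal library and Cox6b2 4 and 8 in WT.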
